A study of Mus musculus with 24 samples.

Results

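The genes described here are 10 p53 targets and growth arrest genes of the mouse, Cdkn1a, Mdm2, Ccng1, Gadd45a, Gadd45b, Bax, Trp53inp1, Btg2, Phlda3 and Eda2r. They were found by gene name in the read-count table, where they are 10 of 35275 genes, and all 10 passed the filter on low counts. RNA was sequenced from the livers of male C57BL/6 mice that were 8 to 10 weeks old and had fasted for 24 h, with 24 libraries in 6 groups of 4. The question of the series is how activation of mTorc1, the growth-promoting kinase complex, and loss of hepatic fatty acid oxidation shape the fasted liver. The control libraries are labelled wild type, and the study's methods describe control littermates with floxed Tsc1 and Cpt2 alleles. The Tsc1 L-/- group lacks Tsc1, a brake on mTorc1, in the liver. The Cpt2 L-/- group lacks Cpt2, a carnitine palmitoyltransferase that mitochondria need to burn long-chain fatty acids, in the liver. The Tsc1Cpt2 L-/- group (DKO) lacks both. The study's methods give Albumin-Cre as the driver of these deletions, which the paper calls liver-specific. Which cells of the liver carry them was not tested here. A knockout of Ppara, the nuclear receptor that drives the fasting response of the liver, forms the fifth group (Ppara KO), and the last group joins it to Cpt2 L-/- (Cpt2 L-/- Ppara KO). The labels do not say whether the Ppara knockout is limited to the liver. The study's RNA sequencing methods do not describe the Ppara groups, and the controls are not stated to be their littermates. All 6 groups were fasted, so nothing here compares fasting with feeding.

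The transcription factor p53 is held low in healthy cells by Mdm2, the ubiquitin ligase that marks it for destruction. When DNA damage or metabolic stress stabilizes p53, it binds pairs of decamer half-sites near its target genes and raises their transcription. Cdkn1a then blocks cyclin-dependent kinases, the Gadd45 proteins act in growth arrest and repair, and Bax opens the mitochondrial outer membrane in apoptosis. Mdm2 is itself a target, which closes a feedback loop. Several of these genes also answer to other regulators, and in liver Cdkn1a and Gadd45 genes are known to respond to fasting, stress kinases and growth signals without p53.

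The promoters were read for the pair of half-sites that p53 binds, since the genes are grouped by that regulator. RefSeq promoter windows (GRCm38.p6, 250 bases before to 50 bases after each start) were at hand for 9 of the 10 genes, all except Trp53inp1. The p53 half-site consensus reads the same on both strands. The pairs were searched with a spacer of up to 13 bases, and the best pair of each window was scored by its mismatches. The best pair in each of the 4 windows with the fewest mismatches follows with up to 20 bases on each side and the 10-base half-sites in capitals.
Cdkn1a: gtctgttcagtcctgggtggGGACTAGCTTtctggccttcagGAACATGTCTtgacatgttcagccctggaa
Bax: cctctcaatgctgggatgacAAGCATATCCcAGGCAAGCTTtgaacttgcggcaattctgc
Ccng1: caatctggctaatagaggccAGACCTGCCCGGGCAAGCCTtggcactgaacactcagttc
Gadd45a: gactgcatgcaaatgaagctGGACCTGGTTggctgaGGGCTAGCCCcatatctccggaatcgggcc
The Cdkn1a stretch lies at chr17:29090886-29090957 on the plus strand, and its pair begins 73 bases before the start. This pair had 0 mismatches, as 0.0731% of 32851 windows did. A second Cdkn1a window (chr17:29093519-29093818) had a best pair with 5 mismatches. The Bax stretch (chr7:45467070-45467130, minus strand) and the Ccng1 stretch (chr11:40755442-40755501, minus strand) each had 1 mismatch, and 1.09% of windows held a pair with at most 1. The Gadd45a stretch (chr6:67037418-67037483, minus strand) had 2 mismatches, a level reached by 10.1% of windows. The best pair had 3 mismatches in Gadd45b and 4 in Mdm2, Btg2, Phlda3 and Eda2r, where 45.1% and 89.3% of windows do as well. A match describes the letters in the window and is no measure of binding. Sites outside these windows were not searched, so a poor match does not show that a gene lacks a site.

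Total counts per library ran from 14470968 to 20371204, and no pair of libraries within a group agreed within sampling noise (lowest chi-square per degree of freedom 24.07 over 36 pairs). Levels are given as CPM (read counts scaled to a common library size), scaled over all 24 libraries. Tsc1 was 38.4 ± 1.33 CPM (SD, n = 4) in control, 24.5 ± 4.55 in Tsc1 L-/- and 16.4 ± 1.24 in DKO. Ppara was 258 ± 28.5 CPM in control, 27.3 ± 16.3 in Ppara KO and 50.7 ± 27.4 in Cpt2 L-/- Ppara KO. Cpt2 was not lower in the libraries labelled Cpt2 L-/- (91.6 ± 10.4 CPM) or DKO (96.1 ± 17.5) than in control (98.6 ± 7.04), so counts over the whole gene did not check those labels, and the groups are named here as labelled. The 6 hepatocyte markers summed to 60142 to 76926 CPM in control, the most of all marker lists. Libraries correlated least with their own group in Cpt2 L-/- Ppara KO and Ppara KO (mean r from 0.945 to 0.973, against 0.969 to 0.987 in the other 4 groups, over log2 CPM).

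Per length, the genes covered a wide range in control liver. Bax had the highest mean at 28.1 ± 4.08 FPKM (SD, n = 4), followed by Trp53inp1 at 21.7 ± 6.83, Cdkn1a at 14.05 ± 12.3, Mdm2 at 13.4 ± 1.89 and Ccng1 at 12.5 ± 1.19 FPKM. Gadd45b (8.02 ± 3.75) and Btg2 (6.19 ± 2.54) stood lower. Phlda3 (0.889 ± 0.260), Gadd45a (0.787 ± 0.653) and Eda2r (0.173 ± 0.0391) were near the bottom. The SD of Cdkn1a was almost as large as its mean, so its place was not resolved, nor was that of Bax above Trp53inp1. In control replicate 2 Bax was 22.7 FPKM, below Trp53inp1 (28.96 FPKM) and Cdkn1a (24.6 FPKM).

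**Figure D1:**
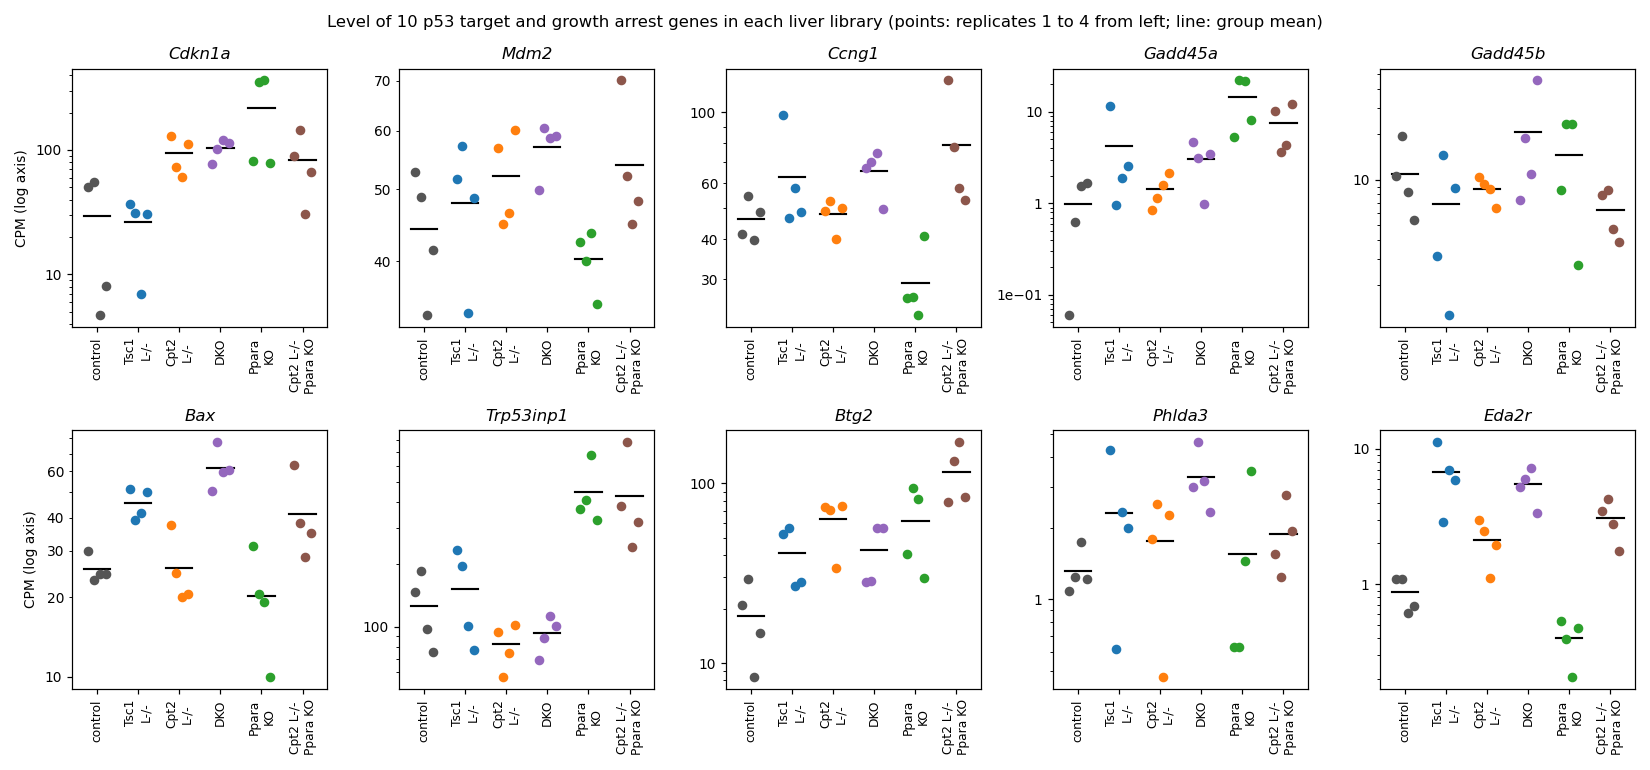
Level of each gene in CPM on a log axis, 1 panel per gene, with the 4 libraries of each of the 6 groups as points and the group mean as a line. Eda2r and Bax are high in Tsc1 L-/- and DKO, Trp53inp1 and Gadd45a in the 2 groups without Ppara, and Cdkn1a spreads from 4.73 to 55.2 CPM within control.

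Loss of Tsc1 was marked by Eda2r and Bax. Eda2r encodes a receptor of the tumor necrosis factor family that binds the ectodysplasin EDA-A2, and it was near the limit of counting in control. Its level was 0.616 to 1.10 CPM in the control libraries and 11.2, 2.87, 6.94 and 5.87 CPM in Tsc1 L-/-. Every Tsc1 L-/- library lay above every control library, with 42 to 184 reads against 12 to 18. The difference was 2.95 ± 0.40 on the log2 scale (log2 fold change ± SE), or 7.73-fold (edgeR adjusted p = 0.00022). Bax was 29.996, 23.2, 24.6 and 24.5 CPM in control and 51.6, 39.1, 41.7 and 50.2 CPM in Tsc1 L-/-, again without overlap. Bax was 1.79-fold higher (log2 fold change 0.84 ± 0.18, adjusted p = 0.0096). With the 2 Ppara groups in the fit, Bax no longer passed (adjusted p = 0.098). These were the 2 members of 10 that passed in Tsc1 L-/- against control, where 6.64% of all 13641 genes tested passed, 4.16% higher and 2.48% lower. The median log2 fold change of the 10 genes was 0.63, against 0.0068 over all genes tested.

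The other 8 members did not pass in Tsc1 L-/-. Btg2, a partner of the mRNA deadenylation machinery that restrains proliferation, had a log2 fold change of 1.17 ± 0.41 (adjusted p = 0.11), and it passed with DESeq2 (0.019). Gadd45a had a log2 fold change of 2.10 ± 0.79 (adjusted p = 0.13) that leaned on 1 library. Its level was 11.5 CPM in Tsc1 L-/- replicate 1 and 0.956 to 2.56 CPM in the other 3. Cdkn1a did not differ beyond its spread (log2 fold change -0.16 ± 0.68, adjusted p = 0.93), with 6.94 to 36.6 CPM in Tsc1 L-/- and 4.73 to 55.2 CPM in control.

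In DKO livers, 5 of the 10 genes rose over control and none fell by the test. There, 36.4% of all genes passed, 19.3% higher and 17.1% lower. The median of the 10 was 1.26 on the log2 scale, against 0.017 over all genes. Bax was 50.5, 77.4, 59.5 and 60.8 CPM, above every control library, and 2.46-fold higher (1.30 ± 0.18, adjusted p = 3.5e-05). Eda2r was 5.25, 6.02, 7.22 and 3.36 CPM, also above every control library, and 6.33-fold higher (2.66 ± 0.40, adjusted p = 6.3e-05). Both calls held under all 13 alternatives.

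The other 3 calls in DKO were less secure. Phlda3, whose pleckstrin homology domain competes with the kinase Akt for membrane lipids, was 2.99, 4.63, 3.19 and 2.35 CPM in DKO and 1.09 to 1.75 CPM in control (log2 fold change 1.32 ± 0.47, adjusted p = 0.036). The groups did not overlap, yet the call was lost under 7 of 13 alternatives, 5 of which left out a library (control 1, 2 or 4, DKO 2 or 3, adjusted p up to 0.107). Btg2 was 28.2, 28.7, 56.2 and 56.8 CPM in DKO and 21.1, 29.3, 8.37 and 14.6 CPM in control, with overlap at the low end (1.23 ± 0.41, adjusted p = 0.031). It was lost without control 3 or 4 or without DKO 3 or 4 (0.076 to 0.084). Ccng1, the cyclin that brings a phosphatase to Mdm2, was 67.0, 70.0, 74.6 and 49.9 CPM in DKO against 39.8 to 54.8 CPM in control (0.52 ± 0.20, adjusted p = 0.048). That call was lost under 11 of 13 alternatives (up to 0.145), among them leaving out control 1, 3 or 4 or DKO 1, 2 or 3. Leaving out single libraries took the count of 5 down to 3 (without control 3 or DKO 2) or 2 (without control 4 or DKO 3).

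Cdkn1a in DKO was 77.2, 102, 120 and 113 CPM, above all 4 control libraries, but the log2 fold change of 1.82 ± 0.69 stopped at an adjusted p of 0.056. The control libraries were themselves split, at 50.5 and 55.2 CPM in replicates 1 and 2 and at 4.73 and 8.13 CPM in replicates 3 and 4. The call was gained without control 1 (0.048) or control 2 (0.037), with DESeq2 (0.028) and with a replicate block (0.030).

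Loss of Cpt2 alone raised Btg2 and Eda2r. Btg2 was 74.4, 71.0, 33.6 and 75.0 CPM in Cpt2 L-/-, above every control library, and 3.47-fold higher (log2 fold change 1.80 ± 0.41, adjusted p = 0.0048). Eda2r was 2.98, 2.47, 1.12 and 1.95 CPM, again above all control libraries but by a narrow margin at replicate 3 (1.29 ± 0.41, adjusted p = 0.023). That call was lost without control 3 or 4 or without Cpt2 L-/- 1 or 2 (0.0504 to 0.0789), which leaves 1 call. Cdkn1a was 130, 72.5, 60.8 and 113 CPM, without overlap with control, and 3.18-fold higher with an adjusted p of 0.084 (1.67 ± 0.69). It passed with DESeq2 (0.049). Across all genes 31.0% passed in this comparison, 16.2% higher and 14.9% lower, so 2 of 10 is no more than the background. Bax was level with control (0.0096 ± 0.18, 95% interval from -0.35 to 0.37).

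Adding the loss of Tsc1 to that of Cpt2 raised Bax and Eda2r. Bax in Cpt2 L-/- was 37.6, 24.8, 19.99 and 20.6 CPM, all below the 4 DKO libraries, and the difference was 2.44-fold (1.29 ± 0.18, adjusted p = 0.00021). Eda2r was 2.59-fold higher in DKO than in Cpt2 L-/- (1.37 ± 0.37, adjusted p = 0.015), a call lost without Cpt2 L-/- replicate 3 (0.0596), which leaves 1 of the 2. Over all genes 18.3% passed, 10.9% higher and 7.4% lower. Between DKO and Tsc1 L-/-, 32.2% of genes passed (16.9% higher and 15.2% lower), and 1 member did. Cdkn1a was 36.6, 30.9, 6.94 and 30.8 CPM in Tsc1 L-/-, below every DKO library, and 3.95-fold higher in DKO (1.98 ± 0.70, adjusted p = 0.045). The call was lost with any 1 of the 8 libraries left out (0.057 to 0.103). The interaction of the 2 deletions, a test of whether the Tsc1 difference depends on Cpt2, passed for 2.38% of genes and for 0 members in edgeR. The members nearest the threshold in edgeR were Btg2 (-1.74 ± 0.57, adjusted p = 0.12) and Eda2r (-1.58 ± 0.54, adjusted p = 0.12), and DESeq2 called Btg2 (adjusted p = 0.018). The comparisons with control share their control libraries, and those with Cpt2 L-/- share that group, so their values for a gene are not independent.

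**Figure D2:**
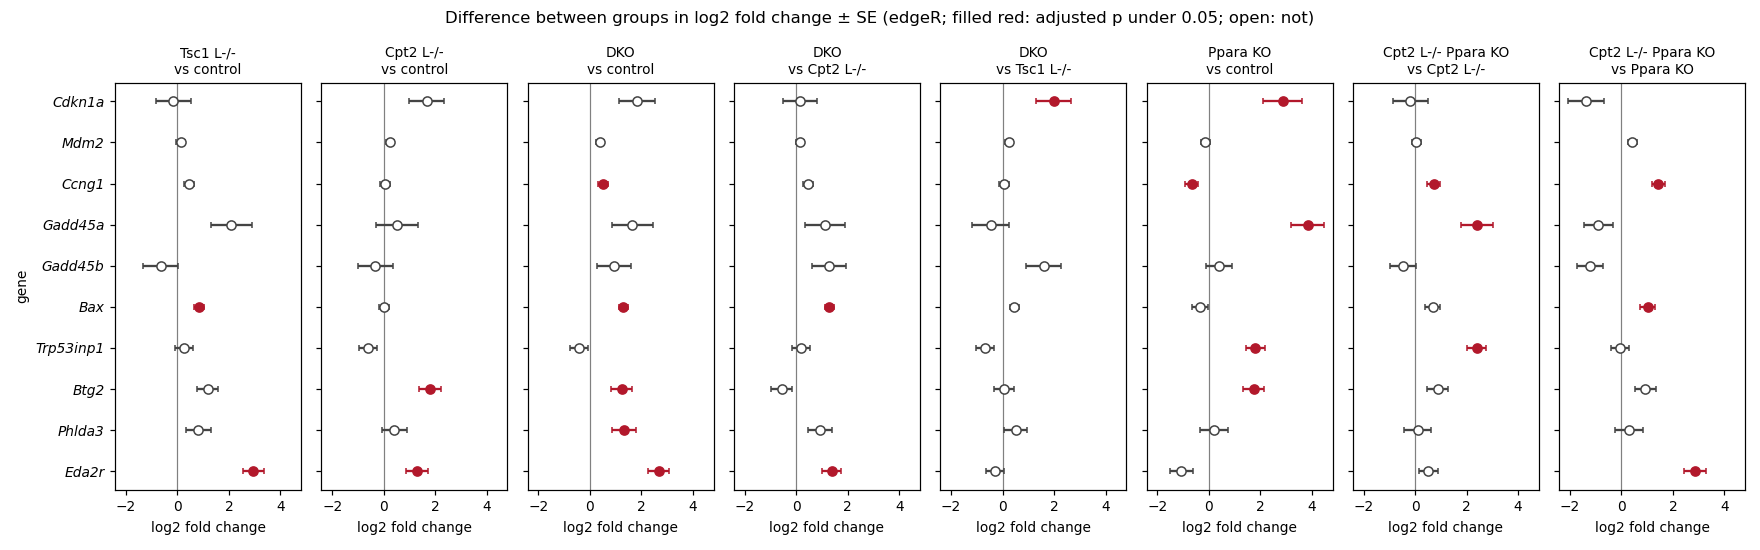
Log2 fold change ± SE of each gene in 8 comparisons, with filled red points for an edgeR adjusted p under 0.05 and open points for the rest. Eda2r and Bax are called in Tsc1 L-/- and DKO against control and in DKO against Cpt2 L-/-, while Cdkn1a, Gadd45a, Trp53inp1 and Btg2 are called higher in Ppara KO.

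In Ppara KO livers, Gadd45a, Trp53inp1, Cdkn1a and Btg2 rose and Ccng1 fell. Thus 4 genes were higher and 1 was lower than in control, where 29.0% of all 13615 genes passed, 15.9% higher and 13.2% lower. Gadd45a, a stress protein that binds PCNA and the kinase MEKK4, was 0.0604, 0.620, 1.54 and 1.68 CPM in control (1 to 30 reads). It was 5.36, 22.1, 22.0 and 8.20 CPM in Ppara KO (119 to 317 reads), with no overlap, and 14.2-fold higher (log2 fold change 3.83 ± 0.65, adjusted p = 0.00043). The antisense gene E230016M11Rik overlaps Gadd45a by 859 bases. It averaged 0.809 CPM, and the strand setting of the counting is not given in the sources used here, so reads of the 2 genes may be mixed.

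Trp53inp1, a stress protein that acts with p53 and in autophagy, was 148, 185, 97.3 and 75.7 CPM in control and 371, 411, 673 and 329 CPM in Ppara KO. All Ppara KO libraries lay above all control libraries, and the difference was 3.50-fold (1.81 ± 0.36, adjusted p = 0.0013). Cdkn1a was 81.7, 349, 363 and 79.2 CPM in Ppara KO, above every control library but split between replicates 2 and 3 and the other 2. It was 7.28-fold higher (2.86 ± 0.74, adjusted p = 0.0092). Btg2 was 40.3, 94.3, 82.1 and 29.9 CPM and 3.34-fold higher, without overlap (1.74 ± 0.41, adjusted p = 0.0048). These 4 calls held under all 13 alternatives.

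Ccng1 was the member that fell in Ppara KO. Its level was 26.2, 26.4, 23.2 and 40.9 CPM against 41.5, 54.8, 39.8 and 48.6 CPM in control (log2 fold change -0.66 ± 0.24, adjusted p = 0.049). The groups touched at 1 library, and the call was lost under 9 of 13 alternatives, among them leaving out any control library or Ppara KO 1, 2 or 3 (adjusted p up to 0.142). Eda2r was 0.208 to 0.540 CPM in Ppara KO, below all control libraries on 3 to 12 reads. Its log2 fold change of -1.06 ± 0.43 did not pass (adjusted p = 0.074) except with a replicate block (0.042). The median of the 10 genes was 0.30.

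On the Cpt2 L-/- background, loss of Ppara again came with more Trp53inp1 and Gadd45a. Trp53inp1 was 94.3, 57.1, 74.8 and 102 CPM in Cpt2 L-/- and 381, 778, 242 and 319 CPM in Cpt2 L-/- Ppara KO. The groups were far apart, at 5.25-fold (2.39 ± 0.36, adjusted p = 0.00042). Gadd45a was 0.852, 1.14, 1.59 and 2.17 CPM in Cpt2 L-/- and 10.1, 3.68, 4.31 and 12.2 CPM in Cpt2 L-/- Ppara KO, 5.31-fold higher (2.41 ± 0.61, adjusted p = 0.014). Ccng1 was 49.0, 52.7, 40.1 and 50.01 CPM in Cpt2 L-/- and 126, 77.6, 57.9 and 53.2 CPM in Cpt2 L-/- Ppara KO, just without overlap. Its call (0.72 ± 0.24, adjusted p = 0.048) was lost under 7 of 13 alternatives, that is with any Cpt2 L-/- library or Cpt2 L-/- Ppara KO 1 or 2 left out (up to 0.209) and without the filter. Thus 3 members were higher, with 18.4% of all genes passing, 10.3% higher and 8.01% lower. Cdkn1a had overlapping levels, at 90.1, 145, 30.8 and 66.0 CPM in Cpt2 L-/- Ppara KO (-0.18 ± 0.69, adjusted p = 0.88).

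Against Ppara KO, the added loss of Cpt2 raised Eda2r, Ccng1 and Bax. Eda2r was 3.47, 4.24, 2.78 and 1.77 CPM in Cpt2 L-/- Ppara KO, above every Ppara KO library, and 7.28-fold higher (2.86 ± 0.42, adjusted p = 0.0013). Ccng1 was 2.70-fold higher without overlap (1.43 ± 0.25, adjusted p = 0.0029). Bax was 63.3, 38.2, 28.5 and 34.9 CPM against 31.3, 20.7, 19.3 and 9.98 CPM in Ppara KO. These overlapped, and the call (1.02 ± 0.30, adjusted p = 0.022) was lost without Ppara KO 3 or 4 or Cpt2 L-/- Ppara KO 1 (up to 0.0982). In this comparison 25.5% of all genes passed, 12.9% higher and 12.6% lower. Eda2r and Ccng1 held under all 13 alternatives.

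The effect of Cpt2 loss differed with Ppara for 2 members, while 24.0% of all genes passed this interaction. For Ccng1 the interaction was 1.38 ± 0.34 on the log2 scale (adjusted p = 0.0093), and it held under all 21 alternatives. Cpt2 loss moved Ccng1 by 0.052 where Ppara was present and by 1.43 where it was absent. For Cdkn1a the interaction was -3.04 ± 1.003 (adjusted p = 0.038), with -1.39 ± 0.70 in the absence of Ppara and 1.67 ± 0.69 in its presence. The values in the presence of Ppara are from the fit with the Tsc1 groups, so they do not add exactly to the interaction. That call was lost under 9 of 21 alternatives, 8 of which left out a library (control 4, Cpt2 L-/- 1 or 4, Ppara KO 2 or 3, Cpt2 L-/- Ppara KO 1, 3 or 4, adjusted p up to 0.0829). Eda2r was at the threshold, with an interaction of 1.58 ± 0.57 (adjusted p = 0.0504) that passed under 7 of 21 alternatives, among them RLE size factors (0.049), DESeq2 (0.042) and the replicate block (0.025). Bax (1.02 ± 0.42, adjusted p = 0.088) passed under 3, with the replicate block (0.011), with all 24 libraries in the fit (0.046) and without Ppara KO 1 (0.024). With single libraries left out, the count of members ran from 1 to 4, the latter without Ppara KO 1.

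The remaining genes passed in fewer comparisons or in none. Mdm2, the negative regulator of p53, stayed between 33.9 and 70.1 CPM in all 24 libraries. Its log2 fold changes ran from -0.14 ± 0.18 in Ppara KO to 0.39 ± 0.16 in DKO against control (adjusted p = 0.066) and 0.42 ± 0.18 in Cpt2 L-/- Ppara KO against Ppara KO (0.084). In DKO the 95% interval was 0.074 to 0.70, and Mdm2 passed there without control replicate 1 (0.034) and with a replicate block (0.042). Gadd45b, the paralog of Gadd45a, spread as much within groups as between them. It was 7.40, 19.0, 10.9 and 45.6 CPM in DKO, 10.7, 19.6, 8.27 and 5.40 CPM in control and 8.56, 23.5, 23.4 and 2.73 CPM in Ppara KO, and it passed in none of the 10 comparisons. It did pass in DKO against Tsc1 L-/- without Tsc1 L-/- replicate 2 (2.24, adjusted p = 0.035) and in Cpt2 L-/- Ppara KO against Ppara KO without Ppara KO replicate 4 (-1.57, adjusted p = 0.016). Phlda3 passed only in DKO against control, and in Ppara KO its levels ran from 0.631 to 3.49 CPM.

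Over the 6 groups, the order of means did not resolve neighbouring groups for most genes. Of the 5 steps for each gene, Trp53inp1 had 1 without overlap, from Cpt2 L-/- Ppara KO to Tsc1 L-/-. Btg2 also had a step without overlap at the top, from Cpt2 L-/- Ppara KO (116 ± 43.1 CPM) to Cpt2 L-/- (63.5 ± 19.997 CPM), and the test of that pair gave an adjusted p of 0.13. For Eda2r the means fell in the order Tsc1 L-/- (6.71 ± 3.43 CPM), DKO (5.46 ± 1.62), Cpt2 L-/- Ppara KO (3.06 ± 1.05), Cpt2 L-/- (2.13 ± 0.796), control (0.875 ± 0.255) and Ppara KO (0.405 ± 0.145). The last 2 steps, from Cpt2 L-/- to control and from control to Ppara KO, were without overlap. DKO and Tsc1 L-/- did not differ beyond their spread in Eda2r (-0.29 ± 0.35, adjusted p = 0.56).

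The members moved together only in part. Once group means were removed, Cdkn1a correlated with Mdm2 (r = 0.74), Trp53inp1 (0.71), Btg2 (0.66) and Gadd45b (0.64) over the 24 libraries in log2 CPM, and Ccng1 with Eda2r (0.70). With group means kept in, Bax and Eda2r had r = 0.80, and Cdkn1a and Bax had r = -0.025. The libraries share their groups and their scaling, and these values are descriptions. The 3 genes whose pattern was most like that of Cdkn1a, of 13397 compared over 24 libraries, were Insig2 (Pearson r = 0.91), Ccdc86 (0.89) and Specc1 (0.88). Insig2, a regulator of sterol synthesis, was 253 ± 81.6 CPM in control, 995 ± 224 in Cpt2 L-/- and 1982 ± 993 in Ppara KO (SD, n = 4).

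In control and Ppara KO, the libraries with more Cdkn1a also had more of the immediate early genes, the rapid transcription factors of stimulated cells such as Fos, Jun and Egr1. The 14 of them summed to 411 and 386 CPM in control replicates 1 and 2 and to 262 and 251 CPM in replicates 3 and 4. In Ppara KO they summed to 923 and 759 CPM in replicates 2 and 3, where Cdkn1a was 349 and 363 CPM, and to 498 and 390 CPM in replicates 1 and 4. In Cpt2 L-/- and DKO the library with the least Cdkn1a had the lowest sum, at 364 CPM in Cpt2 L-/- replicate 3 (443 to 457 CPM in the others) and 231 CPM in DKO replicate 1 (350 to 477 CPM in the others). The 2 other groups ran otherwise, as in Cpt2 L-/- Ppara KO replicate 3, with 640 CPM of immediate early genes and 30.8 CPM of Cdkn1a, the lowest of its group, and in Tsc1 L-/- replicate 3, with 382 CPM and the lowest Cdkn1a of its group (6.94 CPM). In Ppara KO against control, 10 of 14 immediate early genes were higher and 0 lower (71.4% higher, beside 15.9% of all genes), led by Nr4a1 (log2 fold change 3.02, adjusted p = 0.0010), Fosb (2.39, 0.047), Egr1 (2.17, 0.00021) and Jun (1.89, 0.00066). Of the 13 tested in the other fit, 3 were higher and 4 lower in DKO (23.1% and 30.8%, beside 19.3% and 17.1%), 3 higher and 0 lower in Cpt2 L-/- (23.1% higher, beside 16.2%), and 0 passed in Tsc1 L-/-. Their part in the Cdkn1a result was not tested.

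**Figure D3:**
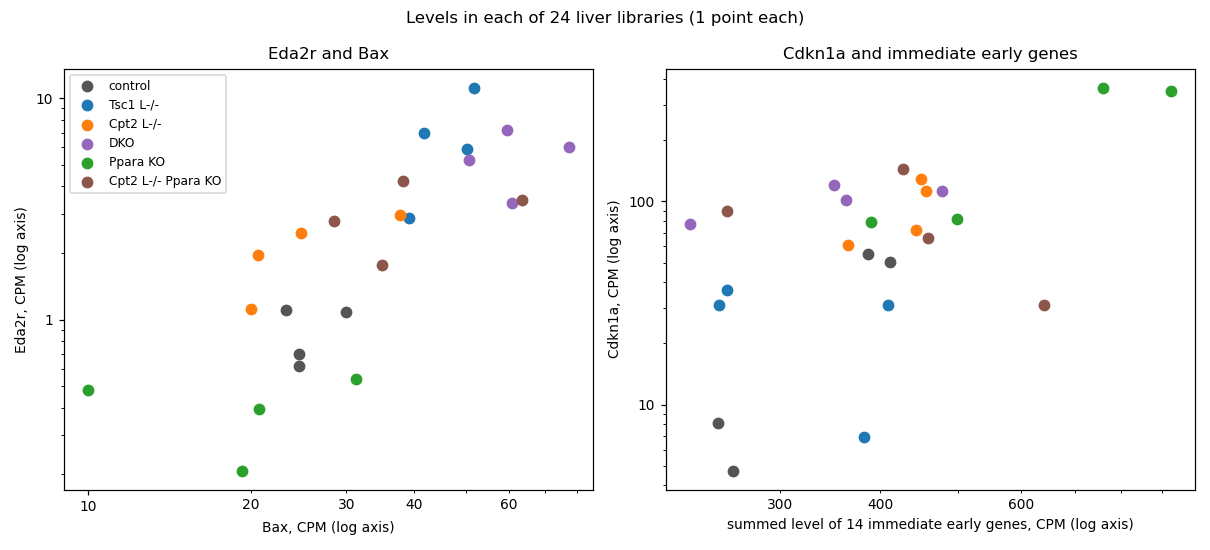
Levels in 24 libraries, coloured by group, both axes in CPM on log scales: Eda2r against Bax (left) and Cdkn1a against the sum of 14 immediate early genes (right). Control and Ppara KO libraries sit at the bottom of the left panel with Eda2r at 1.10 CPM or less, and the 2 Ppara KO libraries with the most Cdkn1a, 349 and 363 CPM, sit at the far right of the right panel.

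The gene for p53 itself rose in Cpt2 L-/- and DKO. Trp53 was 16.6 ± 1.84 CPM (SD, n = 4) in control, 22.3 ± 5.09 in Cpt2 L-/- (log2 fold change 0.42 ± 0.14, adjusted p = 0.031) and 24.6 ± 1.72 in DKO (0.58 ± 0.14, adjusted p = 0.0041). In Tsc1 L-/- it was 20.6 ± 1.46 CPM (0.31 ± 0.14, adjusted p = 0.22). In Ppara KO it ran from 4.50 to 28.2 CPM and did not pass (-0.13 ± 0.39, adjusted p = 0.83). Mdm4, the partner of Mdm2, passed in none of the 10 comparisons, nor did Ppm1d, the phosphatase that dampens p53 signaling (from 5.36 ± 0.360 CPM in DKO to 8.82 ± 1.69 in Ppara KO). Of the 16 regulators tested, 0 passed in Tsc1 L-/-, 2 higher and 1 lower in Cpt2 L-/-, 2 higher in DKO, and 3 higher and 2 lower in Ppara KO, each against control. The share called higher was 12.5% in Cpt2 L-/- and in DKO, below that of all genes, and 18.8% in Ppara KO beside 15.9% of all genes. In Ppara KO the checkpoint kinase Chek2 fell (-2.04, adjusted p = 0.0051), while Chek1 rose (1.85, 0.033), as it did in DKO (1.19, 0.049).

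Of 37 other p53 targets tested, 13 were higher and 3 lower in DKO against control, 35.1% and 8.11% beside the 19.3% and 17.1% of all genes. The 4 with the largest change there were Gdf15, a circulating stress hormone (log2 fold change 2.81, adjusted p = 0.00092), Tnfrsf10b, a death receptor (2.5, 0.00027), Sulf2, a sulfatase (1.61, 4.6e-06), and Plk2, a polo-like kinase (1.57, 0.00041). In Tsc1 L-/- 5 rose and 1 fell (13.5% and 2.70%, beside 4.16% and 2.48% of all genes). Plk2 (1.55, 0.0031), Sulf2 (1.34, 0.00026) and Sesn2, a sestrin that restrains mTorc1 (1.17, 0.030), were up. In Cpt2 L-/- 8 rose and 2 fell (21.6% and 5.41%, beside 16.2% and 14.9%), with Gdf15 at 3.16 (0.00049), Tnfrsf10b at 1.76 (0.0055) and Sulf2 at 1.51 (1.4e-05). In Ppara KO 8 rose and 3 fell (21.6% and 8.11%, beside 15.9% and 13.2%), with Gdf15 at 4.83 (0.00025), Sesn2 at 1.59 (0.00077) and Pmaip1, a BH3-only protein, at 1.33 (0.030). In Cpt2 L-/- Ppara KO against Cpt2 L-/- 2 rose and 4 fell (5.41% and 10.8%, beside 10.3% and 8.01%), and against Ppara KO 3 rose and 3 fell (8.11% each, beside 12.9% and 12.6%). DKO had 4 higher and 4 lower than Cpt2 L-/- (10.8% each, beside 10.9% and 7.4%) and 7 higher and 3 lower than Tsc1 L-/- (18.9% and 8.11%, beside 16.9% and 15.2%).

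Other growth arrest genes split in direction. In DKO against control 3 of 18 were higher and 5 lower (16.7% and 27.8%, beside 19.3% and 17.1% of all genes). Klf6, a Krüppel-like factor, rose (2.72, 2.1e-06), as did Btg3 (1.66, 0.0045), while Gas1 (-1.76, 0.0046) and the inhibitor of Cdk4 and Cdk6 Cdkn2c (-1.35, 0.00015) fell. In Ppara KO 5 of 19 were higher and 3 lower (26.3% and 15.8%, beside 15.9% and 13.2%), with Btg3 at 2.85 (0.00029), Klf6 at 2.03 (1.8e-05) and Klf4 at 1.67 (0.011) up and Gas6 at -1.40 (0.00026) down. In Tsc1 L-/- 2 were higher, Gas2 (0.93, 0.0051) and Rbl2 (0.48, 0.030), and 0 lower (11.1% higher, beside 4.16%). In Cpt2 L-/- 3 were higher and 3 lower (16.7% each, beside 16.2% and 14.9%), led by Klf6 (2.57, 5.3e-06). DKO had 4 higher and 8 lower than Tsc1 L-/- (22.2% and 44.4%, beside 16.9% and 15.2%), with Gas1 at -2.60 (0.00031), Klf6 at 2.14 (2.0e-05), Gas2 at -1.47 (1.7e-05) and Cdkn2c at -1.45 (9.8e-05).

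Genes of the cell cycle gave no uniform picture beside these. Of 12 G1 cyclins, kinases and their factors, 4 rose and 1 fell in DKO (33.3% and 8.33%, beside 19.3% and 17.1% of all genes), with Myc at 2.05 (0.00029), Ccne1 at 1.30 (0.0015) and Cdk4 at 0.98 (5.7e-06) up and Ccnd2 at -0.83 (0.023) down. In Tsc1 L-/- Ccne1 rose (1.69, 0.0012) and no other passed. Myc (2.09, 0.00030) and Cdk4 (0.75, 0.00010) rose in Cpt2 L-/-, and the factor E2f1 (-1.75, 0.0014) and Ccnd2 (-0.83, 0.025) fell there. In Ppara KO Myc (2.09, 0.00023) and Cdk6 (0.82, 0.028) rose and Ccnd3 fell (-1.81, 3.8e-06). Of the S and M phase genes tested, 0 of 16 passed in Tsc1 L-/-. In DKO 3 rose and 1 fell (Mcm2 at 2.20, 5.4e-05, Birc5 at -1.73, 0.017), or 18.8% and 6.25%, no more than among all genes. There were 1 that rose and 2 that fell in Cpt2 L-/- (6.25% and 12.5%, beside 16.2% and 14.9%), and 1 of 15 rose and 2 fell in Ppara KO (6.67% and 13.3%, beside 15.9% and 13.2%), where Rrm2 was at 3.25 (0.00028). The summed level of 21 S and M phase genes was 58.6 to 81.4 CPM in control and 73.8 to 120 CPM in DKO. Of the 16 tested, 5 were higher and 2 lower in DKO than in Tsc1 L-/- (31.25% and 12.5%, beside 16.9% and 15.2% of all genes). Against Cpt2 L-/-, 3 were higher in DKO and 0 lower (18.75% higher, beside 10.9%).

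Among 12 other Bcl2 family genes, 4 rose and 1 fell in DKO (33.3% and 8.33%, beside 19.3% and 17.1% of all genes), and 3 rose in Tsc1 L-/- (25.0%, beside 4.16%). Both in Cpt2 L-/- and in Ppara KO 2 rose and 2 fell (16.7% each way), where 16.2% and 15.9% of all genes were higher and 14.9% and 13.2% lower. The BH3-only gene Hrk had 0 reads in all 4 control libraries, which allows at most 3 reads per library. It had 14 to 39 reads in Tsc1 L-/-, 9 to 20 in Cpt2 L-/-, 12 to 29 in DKO and 1 to 14 in Ppara KO. Against that limit its mean was at least 8.24-fold higher in Tsc1 L-/- and at least 6.54-fold higher in DKO. Bmf, a BH3-only gene, fell in DKO (-1.88, 0.00018), and Bik, another, rose there (1.10, 0.0035) and in Tsc1 L-/- (1.06, 0.021) and fell in Ppara KO (-2.16, 0.00054). Genes of the integrated stress response, which Atf4 controls, were higher in 5 of 14 in Tsc1 L-/-, 7 in Cpt2 L-/-, 9 in DKO and 11 in Ppara KO, with 0, 0, 0 and 1 lower. These are 35.7%, 50%, 64.3% and 78.6% higher, beside 4.16%, 16.2%, 19.3% and 15.9% of all genes. In DKO the largest were Psat1 (6.04, 2.2e-05), Nupr1 (4.97, 0.00023), Atf3 (4.33, 0.00065) and Asns (2.39, 0.016). These lists share some genes, Sesn2 among them, and no list was tested as a set.

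**Figure D4:**
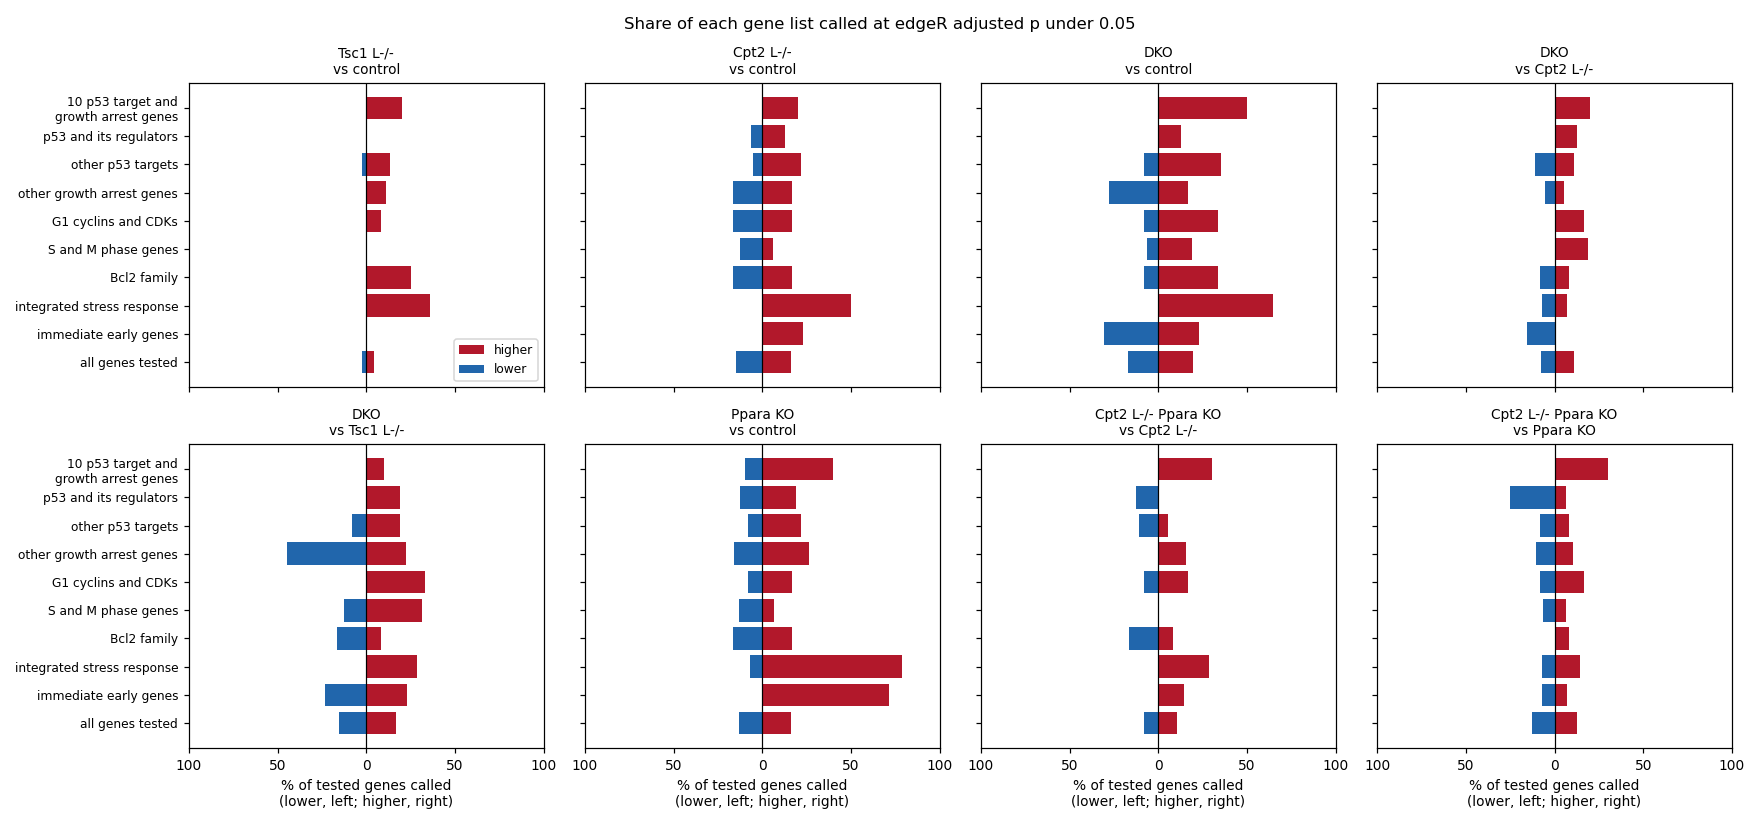
Percentage of the tested genes of each list called higher (right, red) or lower (left, blue) at an edgeR adjusted p under 0.05 in 8 comparisons, with the 10 genes at the top and all genes tested at the bottom. In DKO against control the 10 genes reach 50% higher beside 19.3% of all genes, and in Ppara KO the immediate early genes reach 71.4% higher beside 15.9%.

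Markers of other liver cells moved with some of these groups. In DKO against control, all 6 stellate cell markers were lower, 4 of 6 endothelial markers were lower, and of 6 Kupffer cell and macrophage markers 4 were lower and 1 higher, while 3 of 6 hepatocyte markers were lower. The stellate sum was 252 to 329 CPM in control and 151 to 191 CPM in DKO, and the hepatocyte sum was 25631 to 32218 CPM in DKO. In Tsc1 L-/- no marker of these 4 lists passed. The stellate sum there was 161 to 240 CPM, below every control library. The hepatocyte sum was 37522 to 60605 CPM, overlapping control (60142 to 76926 CPM) at its upper end only. The Kupffer cell and endothelial sums overlapped control. In Cpt2 L-/- 3 stellate and 3 hepatocyte markers were lower, and 1 Kupffer cell and 1 endothelial marker were higher. In Ppara KO 1 stellate, 1 hepatocyte and 1 Kupffer cell marker were lower, and 1 Kupffer cell and 1 endothelial marker were higher. Erythroid markers summed to 281 to 637 CPM in control and 352 to 1688 CPM in Ppara KO, the most in replicate 2. In DKO, 3 of 6 Kupffer cell and 2 of 6 endothelial markers were lower than in Cpt2 L-/-, and 4 of 6 hepatocyte and 3 Kupffer cell markers were lower than in Tsc1 L-/-, with 1 Kupffer cell marker higher in each. There, 1 stellate marker was also lower in each, 1 endothelial marker was lower than in Tsc1 L-/-, and 1 hepatocyte marker was higher and 1 lower than in Cpt2 L-/-. In Cpt2 L-/- Ppara KO, 2 of 3 erythroid and 2 Kupffer cell markers were higher than in Cpt2 L-/-, and 3 endothelial markers were lower, 1 endothelial and 2 Kupffer cell markers were higher than in Ppara KO. Of the stellate markers 1 was lower in each of these comparisons and 1 higher than in Ppara KO, and 1 hepatocyte marker was higher in each. T and NK cell markers summed to 3.6 to 15.2 CPM over all libraries, B cell markers to at most 9.6 CPM and neutrophil markers to at most 7.1 CPM. Ptprc, common to leukocytes, was lower than control in DKO (-1.21, adjusted p = 0.0018) and Ppara KO (-0.93, 0.022), and the B cell gene Cd79a was lower in Ppara KO (-1.65, 0.012). Cholangiocyte markers summed to 13.1 to 48.3 CPM, with Krt19 lower in DKO (-1.98, 0.028) and Spp1 in Cpt2 L-/- (-0.71, 0.0019), and Sox9 4.96-fold higher in Ppara KO (2.31, 0.0012) and 8.39-fold lower in Cpt2 L-/- Ppara KO than in Ppara KO (-3.07, 0.0016). For scale, 1 marker of 6 is 16.7%, close to the share of all genes called in one direction in these comparisons of DKO, Cpt2 L-/- and Ppara KO with control (13.2% to 19.3%). The part of these markers in the results of the 10 genes was not tested. In bulk liver, fewer cells of a type and less RNA per cell cannot be told apart.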

How the data were processed

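RNA of fasted mouse liver was made into 24 stranded mRNA libraries and read as single 75 base reads, per the labels. The authors deposited whole-number read counts per gene and FPKM values (reads scaled to gene length and library size). The submitters' processing notes name Bowtie 0.12.2, TopHat, STAR 2.5, STAR-Fusion, HTSeq 0.6.1, DESeq2 and edgeR without roles, and the builds mm8 and mm9, while gene positions in the table are those of GRCm38. The strand setting of the counting is not given in the sources used here. Columns of samples not used numbered 0.

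Counts were tested with edgeR 4.0.16 (R 4.3.3), by quasi-likelihood with robust fitting, TMM scaling and filterByExpr (minimum count 10, total 15). Control, Tsc1 L-/-, Cpt2 L-/- and DKO formed one fit (13641 genes) and control, Cpt2 L-/-, Ppara KO and Cpt2 L-/- Ppara KO the other (13615 genes), with 16 libraries each. The p-values were adjusted by Benjamini and Hochberg over all genes tested in a comparison, with a threshold of 0.05, over 10 comparisons. Standard errors were derived from the F statistic, and 95% intervals are 1.96 SE to each side. FPKM served only to compare genes by level. Each library has its own code in the labels, which do not say that libraries of a group are separate animals, so p-values measure the spread between these libraries. No batch is given in the labels.

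The 10 genes and all gene and marker lists were chosen with earlier results of these data known. Of each list, at most the 4 genes with the largest change past the threshold in the comparison described were named, with Trp53, Mdm4 and Ppm1d, the 3 genes most correlated with Cdkn1a, and Tsc1, Cpt2 and Ppara as label checks. Of the other p53 targets, 1 gene that meets this rule in Tsc1 L-/-, Cpt2 L-/- and Ppara KO is not reported here. Each gene name entered a list once, by its full gene model. Alternatives were RLE size factors, no filter, DESeq2 1.42.0, a replicate block, all 24 libraries in the fit, and each library left out in turn. Both tools were tested on simulated data.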

Additional observations from a re-analysis of the deposited data

Results flagged for a closer look

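Among 60 sets of 4 libraries (10 genes in 6 groups), 2 held a library far from the other 3 by Dixon's test at the 95% level, where chance gives about 1 in 20. Gadd45a in Tsc1 L-/- was 11.5 CPM in replicate 1 and 0.956 to 2.56 CPM in the other libraries (gap over range 0.848). Btg2 in Cpt2 L-/- was 33.6 CPM in replicate 3 and 71.0 to 75.0 CPM in the others (gap over range 0.903).

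In 2 genes the difference made by Cpt2 loss depended on Ppara by the interaction test in edgeR. The interaction was -3.04 on the log2 scale for Cdkn1a (adjusted p = 0.038) and 1.38 for Ccng1 (adjusted p = 0.0093). Over all genes 24.0% passed this test, and the Cdkn1a call was lost under 9 of 21 alternatives.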

How the results depend on the processing

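Of the 100 member values (10 genes in 10 comparisons), 97 kept their direction and side of the threshold with RLE size factors, 94 without the filter, 94 with DESeq2, 92 with a replicate block and 95 with all 24 libraries in the fit, and none reversed. Some of the moves in the count of members called follow, and the list is not complete. For example, DESeq2 also gained Btg2 in Tsc1 L-/- and Cdkn1a in Cpt2 L-/-, each against control. Without the filter, Ccng1 was lost in Ppara KO against control. With all 24 libraries it was 1 for Tsc1 L-/- against control, 3 for DKO against control and 0 for DKO against Tsc1 L-/-. Without the filter it was 3 for DKO against control, 0 for DKO against Tsc1 L-/- and 1 for the interaction of Cpt2 and Ppara. DESeq2 gave 1 for the interaction of Tsc1 and Cpt2, and the replicate block gave 4 for the interaction of Cpt2 and Ppara. With a library left out, the count ran from 1 to 2 for Cpt2 L-/- against control, 2 to 5 for DKO against control, 1 to 2 for DKO against Cpt2 L-/-, 0 to 1 for DKO against Tsc1 L-/- and 1 to 4 for the interaction of Cpt2 and Ppara. The replicate numbers share no stated litter or day, and same-numbered libraries correlated between -0.29 and 0.30. Of 48 pairs 18 were over 0.1, where the pairs of control with Cpt2 L-/- were counted again in the second fit. The libraries were therefore not taken as pairs. Over all genes, fitting all 24 libraries gave 400 calls in place of 906 (Tsc1 L-/- against control), 2798 in place of 4235 (Cpt2 L-/- against control), 1065 in place of 2494 (DKO against Cpt2 L-/-) and 65 in place of 324 (interaction of Tsc1 and Cpt2), and DESeq2 gave 745 for the last. The cause of these moves was not tested. Eda2r, Gadd45a and Phlda3 rest on few reads in several groups, and the SE of Cdkn1a was 0.67 to 0.74 on the log2 scale in the comparisons of 2 groups.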
